A study of Homo sapiens with 6 samples.

Results

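Chromosome 19 carries large clusters of zinc finger genes. The protein-coding genes of that chromosome whose symbol is ZNF followed by a number were chosen from the GENCODE annotation of hg38. The rule gave 249 genes of the 20033 protein-coding genes on chromosomes 1 to 22, X and Y. Chromatin accessibility at these genes was measured by ATAC-seq, which cuts open DNA with the Tn5 transposase, in HLF cells, a human liver cancer cell line. The 3 control libraries came from cells given the solvent DMSO, and the 3 treated libraries from cells given 5 µM SNDX-5613 (revumenib), a small molecule that blocks binding of menin to the histone methyltransferase MLL1. The labels give 24 h of treatment for both groups and a single batch, while the paper describes longer exposure before ATAC-seq, which leaves the duration uncertain. Both groups are 1 tumour line with no normal liver cells beside them, and the study's methods describe each replicate as a dish of cells split between the arms.

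Most of these genes encode KRAB zinc finger proteins, in which a KRAB domain at one end recruits the corepressor TRIM28 and an array of zinc fingers, usually encoded by the last exon, reads the DNA sequence. They arose by repeated tandem duplication, and many bind and silence transposable elements through histone H3 lysine 9 methylation. Because many neighbours arose as copies of one another, the clusters were compared with each other. They were set by distance along the chromosome, and sequence relation within them was not tested.

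A promoter was counted as accessible in a library when a peak summit lay within 1 kb of the start of the gene's canonical transcript. Levels were read in 2 ways for promoters with a peak in all 6 libraries. The relative pileup is the number of fragments stacked at the strongest promoter summit divided by the median of that number over all protein-coding promoters of the library, so 1 is the typical promoter. The rank percentile orders the same promoters by the authors' -log10 p, with 100 the strongest. In these bulk data a lower level cannot tell fewer cells with an open promoter from a less open promoter in every cell. SNDX-5613 replicate 3 was shallow. Its genome-wide background pileup was 16.2% of the median of the other 5 libraries, and it held 40568 accessible regions against 88026 to 113675. Among markers, 6 of 7 hepatocyte promoters had no peak in any library, with SERPINA1 found in 1 DMSO and 1 SNDX-5613 library, whereas the mesenchymal genes VIM, FN1 and ZEB1 had one in all 6. Of 4 epithelial markers, KRT18 and KRT8 were accessible in all 6, EPCAM in 3 and CDH1 in none. No blood (3) or endothelial (2) marker promoter had a peak.

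Zinc finger promoters of chromosome 19 were accessible almost throughout. A peak was present in all 6 libraries at 226 of the 249 genes (90.8%), against 58.7% of all protein-coding genes, 644 of the 1227 other protein-coding genes of chromosome 19 (52.5%) and 222 of 266 ZNF genes on other chromosomes (83.5%). No library had a peak at 17 genes (6.83%), and 6 genes had one in some libraries. In the DMSO libraries the share of zinc finger promoters with a peak was 92.4%, 93.2% and 92.4%. In the SNDX-5613 libraries it was 92.4%, 92.0% and 90.8%. The 2 ranges overlapped, and the mean was 92.6% ± 0.46 (SD, n = 3) in DMSO and 91.7% ± 0.84 (SD, n = 3) in SNDX-5613. This difference of -0.94 percentage points did not pass the exact two-sided permutation test (p = 0.3, smallest possible 0.1).

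The zinc finger promoters exceeded the other genes of chromosome 19 in every library, by 26.6 to 37.4 percentage points. Over the 6 libraries the difference was 30.05 ± 3.82 percentage points (SD, n = 6; exact two-sided sign-flip permutation test, p = 0.03125, the smallest that 6 libraries allow). The libraries were the units here, so p speaks to repetition across libraries only. Shares in the shallow library were lower in each gene set, and the drop was smaller for these genes. Their share was 92.4% on average in the 5 deeper libraries and 90.8% in SNDX-5613 replicate 3, while the other genes of chromosome 19 went from 63.9% to 53.4%.

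**Figure D1:**
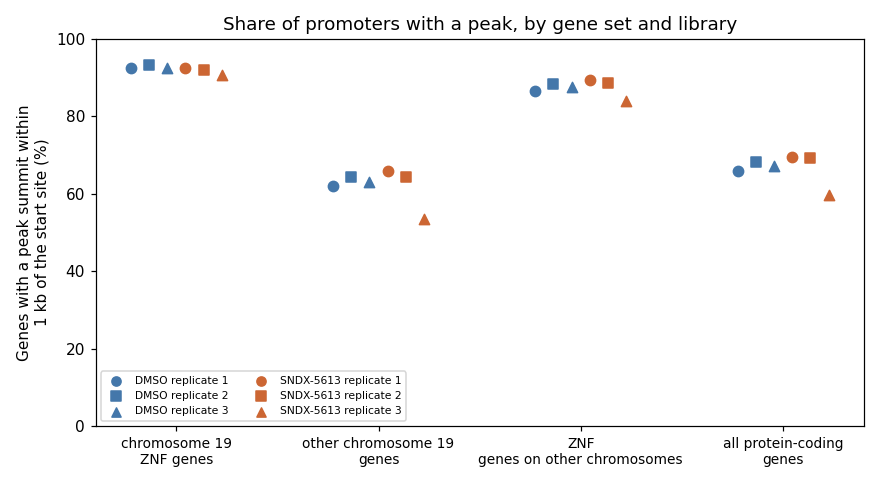
Share of genes with a peak summit within 1 kb of the start site (vertical axis, %) in 4 gene sets (horizontal axis), with 1 point per library, DMSO in blue and SNDX-5613 in orange. The chromosome 19 ZNF genes sit between 90.8% and 93.2% in all 6 libraries, and the triangle of SNDX-5613 replicate 3 is the lowest point of each set.

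Relative pileup and fold enrichment placed these promoters differently. Their median relative pileup was 1.00, 0.98 and 0.95 in DMSO and 0.97, 0.95 and 0.96 in SNDX-5613, close to the typical promoter. When promoters were ordered by fold enrichment over the local background instead, their median stood at the 77.4th to 80.2nd percentile in the 5 deeper libraries and at the 62.9th in SNDX-5613 replicate 3. ZNF genes on other chromosomes stood at the 62.7th to 66.0th and at the 53.6th. The background around the chromosome 19 zinc finger promoters was low. It was 5.41 times the genome-wide background on average, against 8.63 times at other promoters of chromosome 19, and lower in 6 of 6 libraries (exact sign-flip permutation test, p = 0.03125). ZNF genes on other chromosomes had 5.88 to 6.92 times over the libraries, and all protein-coding promoters 6.66 to 7.78 times. Neighbouring peaks were few as well, with 0.42 other regions within 10 kb of a zinc finger promoter against 1.43 at other promoters of the chromosome (lower in 6 of 6 libraries, exact sign-flip permutation p = 0.03125). It was 0.66 at ZNF genes on other chromosomes and 0.87 at all protein-coding promoters. Reads of neighbouring peaks can add to the local background, so the comparisons of background and of neighbouring peaks are not independent.

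Placed along the chromosome, with a new cluster wherever neighbours lay over 1 Mb apart, 238 of the 249 genes fell into 9 clusters of at least 5 genes and 11 lay outside them. The last cluster, ZNF628 to ZNF446 at the end of the long arm (chr19:55476617-58481230 in hg38, 59 genes), had the highest median relative pileup, 1.37, and was the highest of all clusters in 6 of 6 libraries. ZNF557 to ZNF846 on the short arm (chr19:7069703-9793180, 16 genes) had the lowest, 0.73, and was the lowest in 5 of 6. The ratio of these 2 medians ranged from 1.74 to 2.03 over the libraries. Cluster medians differed in the same way in both arms, with 1.38 in DMSO and 1.39 in SNDX-5613 for ZNF628 to ZNF446 and 0.72 and 0.74 for ZNF557 to ZNF846. These clusters were picked from the order of the values and were not tested.

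Between these ends, medians were 0.82 in ZNF101 to ZNF254 (37 genes), 0.89 in ZNF175 to ZNF331 (40 genes), 0.92 in ZNF653 to ZNF791 (26 genes), and 1.11 both in ZNF565 to ZNF573 (26 genes) and in ZNF575 to ZNF296 (24 genes). The small clusters ZNF302 to ZNF792 and ZNF554 to ZNF77, of 5 genes each, stood at 0.91 and 1.19. Library medians of neighbours in this order overlapped with 2 exceptions. The range over libraries was 0.85 to 0.93 in ZNF653 to ZNF791 and 1.04 to 1.18 in ZNF565 to ZNF573, and 0.96 to 1.25 in ZNF554 to ZNF77 and 1.34 to 1.42 in ZNF628 to ZNF446, with no overlap within either pair. A peak in all 6 libraries was found at 85.0% of the promoters of ZNF175 to ZNF331, 87.5% of those of ZNF575 to ZNF296 and 91.5% to 100% of those of the other 7 clusters. The 11 genes outside clusters had one at 8 promoters (72.7%). Among other coding genes whose starts lay between the zinc finger genes, the share with a peak in all 6 libraries ran from 28.6% of the 14 inside ZNF175 to ZNF331 to 75% of the 12 inside ZNF653 to ZNF791, and it was 46.0% of the 50 inside ZNF628 to ZNF446 and 50.8% of the 59 inside ZNF557 to ZNF846.

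**Figure D2:**
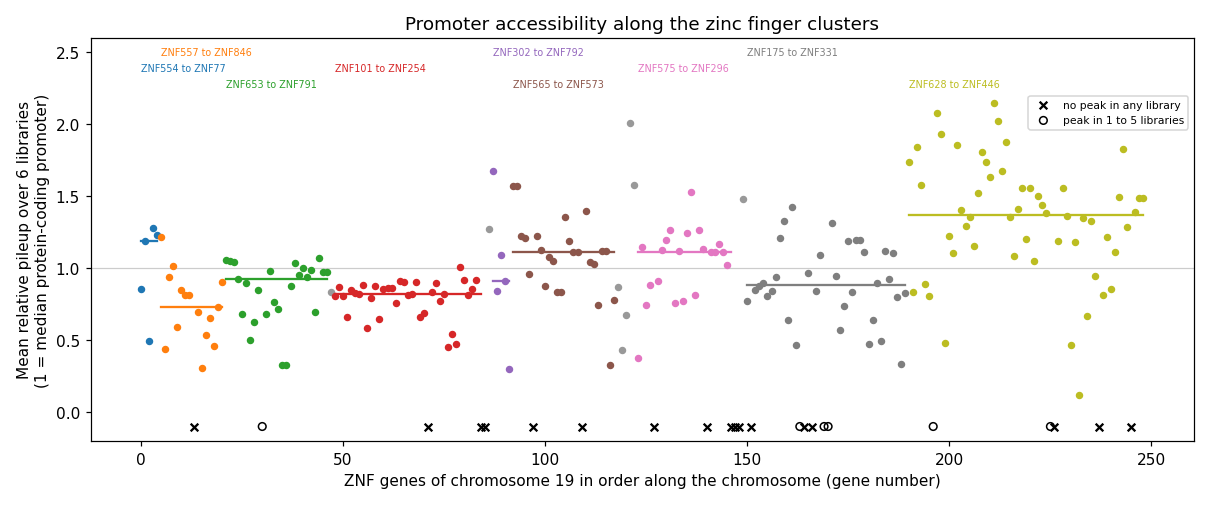
Mean relative pileup over the 6 libraries (vertical axis, 1 is the median protein-coding promoter) of each ZNF gene in order along chromosome 19 (horizontal axis, gene number), coloured by cluster with genes outside clusters in light grey, and with a line at each cluster's median. The ZNF628 to ZNF446 cluster at the right lies highest at a median of 1.37, the ZNF101 to ZNF254 genes form a narrow band around 0.82, and crosses mark the 17 promoters with no peak.

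The ZNF101 to ZNF254 cluster (chr19:19668796-24129968) lies next to the centromere and holds ZNF91, whose protein silences SVA and LINE-1 retrotransposons. Its promoters were accessible in all 6 libraries at 35 of 37 genes. In each library the share with a peak was 1.67 to 4.50 percentage points above that of the other 212 zinc finger genes, on average 2.85 ± 0.93 (SD, n = 6; exact two-sided sign-flip permutation test, p = 0.03125). Other clusters had shares as high or higher, with 100% in every library in ZNF554 to ZNF77 and ZNF302 to ZNF792. The difference is about 1 gene in size, and it was 12.8 percentage points when starts were taken from the 5′ end of the gene record. The relative pileup of ZNF91 was 0.85, 0.90 and 1.04 in DMSO and 1.07, 0.81 and 0.85 in SNDX-5613. The groups overlapped. Levels in this cluster were tight, from 0.45 at ZNF723 to 1.01 at ZNF724, whereas the promoters of ZNF628 to ZNF446 ran from 0.12 at ZNF814 to 2.15 at ZNF547.

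Promoter sequences differed between clusters in ways that the choice of genes did not use. RefSeq promoters (GRCh38.p14, 250 bases before to 50 after the start) were matched for 217 of the 249 genes within 1 kb of the start used. CCAAT is the pentamer that NF-Y recognises, and ATTGG is its reverse complement. This pentamer, in either form, was present in 54.4% of the 217 and in 36.6% of the 14729 matched promoters of other coding genes. Among the latter, ZNF genes on other chromosomes had it in 95 of 211 promoters, a share between those values. On chromosome 19 the clusters diverged widely from 54.4%. All 29 matched promoters of ZNF101 to ZNF254 contained it, as did 23 of 25 in ZNF653 to ZNF791 and 5 of 5 in ZNF554 to ZNF77. It was present in 4 of 20 in ZNF575 to ZNF296, 6 of 25 in ZNF565 to ZNF573 and 9 of 32 in ZNF175 to ZNF331. The counts were 32 of 54 in ZNF628 to ZNF446, 4 of 14 in ZNF557 to ZNF846 and 2 of 4 in ZNF302 to ZNF792. The promoter of ZNF91 (minus strand, chr19:23395422-23395721), that of ZNF723 (plus strand, chr19:22832041-22832340) and that of ZNF724 (minus strand, chr19:23250345-23250644) are printed to show how alike these copies are around the box, with CCAAT and ATTGG in capitals.
ZNF91: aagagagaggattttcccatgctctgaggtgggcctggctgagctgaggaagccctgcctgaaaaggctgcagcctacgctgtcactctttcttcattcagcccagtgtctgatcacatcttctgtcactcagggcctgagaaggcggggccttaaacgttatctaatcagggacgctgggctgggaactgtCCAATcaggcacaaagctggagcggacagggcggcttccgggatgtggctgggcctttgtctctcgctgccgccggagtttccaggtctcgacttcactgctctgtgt
ZNF723: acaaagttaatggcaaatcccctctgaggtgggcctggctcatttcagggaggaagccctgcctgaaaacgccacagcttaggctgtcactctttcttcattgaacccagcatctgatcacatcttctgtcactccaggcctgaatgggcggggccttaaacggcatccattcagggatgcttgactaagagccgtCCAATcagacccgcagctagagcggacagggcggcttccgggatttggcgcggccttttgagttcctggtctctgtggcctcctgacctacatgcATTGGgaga
ZNF724: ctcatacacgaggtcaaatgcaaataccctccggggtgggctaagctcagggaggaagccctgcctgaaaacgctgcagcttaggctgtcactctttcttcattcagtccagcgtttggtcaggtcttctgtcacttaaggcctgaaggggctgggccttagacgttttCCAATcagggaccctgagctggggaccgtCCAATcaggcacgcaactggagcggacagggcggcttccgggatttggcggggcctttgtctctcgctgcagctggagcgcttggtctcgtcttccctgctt

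Another run of letters marked the cluster with the highest levels. GGGACTTC, or GAAGTCCC on the other strand, was noticed in the printed promoters and then counted. It was present in 20 of 54 matched promoters of ZNF628 to ZNF446 (37.0%) and in 2 of the other 163 zinc finger promoters. Among the other coding genes 1.91% held it, and among ZNF genes on other chromosomes 7 of 211. Promoters with these letters and a peak in all 6 libraries had a median relative pileup of 1.41 (n = 19) and those without them 0.92 (n = 181), with ranges of 0.59 to 2.15 and 0.12 to 2.08 that overlapped. The letters were noticed in promoters chosen partly for their strength, so this is a description only. They were present in 9.5% of the 200 matched promoters with a peak in all 6 libraries and in 2 of 14 with no peak (14.3%), the closed ZNF671 promoter among them. Most promoters with these letters belong to 1 cluster, whose own median relative pileup was 1.37, near the 1.41. Promoters with and without the letters were not compared inside that cluster, so a difference beyond that of the cluster was not tested. ZNF547 (plus strand, chr19:57363301-57363600), ZNF460 (plus strand, chr19:57280235-57280534) and ZNF543 (plus strand, chr19:57320222-57320521) are shown with these letters in capitals, ZNF547 and ZNF543 because they are among the 3 strongest promoters and ZNF460 because it ranked higher after SNDX-5613.
ZNF547: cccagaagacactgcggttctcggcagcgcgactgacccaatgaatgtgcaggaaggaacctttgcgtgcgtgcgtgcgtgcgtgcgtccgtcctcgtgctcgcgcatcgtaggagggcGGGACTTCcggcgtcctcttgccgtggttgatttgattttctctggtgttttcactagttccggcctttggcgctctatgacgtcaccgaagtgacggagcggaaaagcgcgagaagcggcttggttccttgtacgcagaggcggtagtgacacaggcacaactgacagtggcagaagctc
ZNF460: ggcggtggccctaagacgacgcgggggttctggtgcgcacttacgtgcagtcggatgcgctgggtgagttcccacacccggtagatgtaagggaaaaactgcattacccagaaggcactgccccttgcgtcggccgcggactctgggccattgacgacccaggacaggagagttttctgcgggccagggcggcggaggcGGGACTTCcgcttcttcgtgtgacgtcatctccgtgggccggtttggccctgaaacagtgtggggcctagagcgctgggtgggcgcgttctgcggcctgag
ZNF543: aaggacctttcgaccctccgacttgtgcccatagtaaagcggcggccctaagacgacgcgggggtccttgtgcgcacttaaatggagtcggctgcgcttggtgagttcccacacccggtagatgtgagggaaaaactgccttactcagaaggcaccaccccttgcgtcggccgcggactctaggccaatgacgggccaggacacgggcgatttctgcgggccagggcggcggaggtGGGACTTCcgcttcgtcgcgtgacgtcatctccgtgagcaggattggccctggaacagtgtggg

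ZNF547 had the highest mean rank of all zinc finger promoters, 99.4, with a relative pileup of 1.93, 2.11 and 2.18 in DMSO and 2.15, 2.16 and 2.35 in SNDX-5613. ZNF749 and ZNF543, also of ZNF628 to ZNF446, followed at mean ranks of 98.6 and 97.6. At the other end, ZNF814 of the same cluster had a mean rank of 1.15 and a relative pileup of 0.13, 0.10 and 0.08 in DMSO and 0.13, 0.14 and 0.12 in SNDX-5613. ZNF575 and ZNF792 came next, at 5.73 and 9.07. Among all 226 genes with a peak in every library, 104 stood above 1 in mean relative pileup, 20 had a mean rank above 90 and 4 below 10.

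The 17 promoters with no peak in any library were, in chromosome order, those of ZNF177, ZNF676, ZNF254, ZNF536, ZNF382, ZNF875, ZNF404, ZNF233, ZNF296, ZNF541, ZNF114, ZNF577, ZNF880, ZNF534, ZNF671, ZNF135 and ZNF132. For 6 of them (ZNF676, ZNF254, ZNF536, ZNF875, ZNF404 and ZNF114) another annotated transcript start had a peak in all 6 libraries, so the canonical start was closed but the gene was not. Another start had a peak in some libraries at ZNF541, ZNF577 and ZNF132. No annotated start had a peak in any library at the other 8, which were ZNF177, ZNF382, ZNF233, ZNF296, ZNF880, ZNF534, ZNF671 and ZNF135. Absence of a peak here means none was called at these depths.

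ZNF154 and ZNF671 are neighbours in ZNF628 to ZNF446, where 54 of 59 promoters were open in all 6 libraries. ZNF154 had a peak in 1 DMSO library and in no SNDX-5613 library, and ZNF671 had none. Promoters of ZNF154, ZNF671, ZNF382 and ZNF132 are known from other work as sites of DNA methylation in tumours. No such record is given here for the open promoters. Methylation was not measured in these libraries, and a link to the missing peaks was not tested.

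Zinc finger promoters with few CpG pairs were open in most cases, unlike other promoters of that class, a difference given as a description with no test. The ratio of observed to expected CpG was computed over 500 bases on either side of the start. Above a ratio of 0.6, 184 of 197 zinc finger promoters (93.4%) and 79.9% of the other protein-coding promoters had a peak in all 6 libraries. At or below 0.6 the shares were 42 of 52 (80.8%) and 16.0%. Of the 52 zinc finger promoters in the lower class, 29 belonged to ZNF101 to ZNF254, whose median ratio was 0.53. All protein-coding promoters with no peak in any library had a median ratio of 0.27. Ratios inside the lower class were not matched between zinc finger and other promoters. Part of the gap between 80.8% and 16.0% may therefore reflect lower ratios among the other promoters. ZNF genes on other chromosomes were not split by class. The 17 promoters with no peak had a median ratio of 0.68, and 9 of them lay above 0.6. Of the 8 with no peak at any start, 6 lay above 0.6. The promoters of ZNF382 (plus strand, chr19:36605063-36605362), ZNF671 (minus strand, chr19:57727575-57727874) and ZNF135 (plus strand, chr19:58059032-58059331) were closed at every start with 27, 11 and 34 CG pairs, and that of ZNF556 (plus strand, chr19:2867085-2867384) was open in all 6 libraries with 8. The median count in RefSeq promoters was 20 for the matched zinc finger genes and 24 for all matched coding genes, so ZNF671 lay below both. The named promoters are printed with each CG in capitals.
ZNF382: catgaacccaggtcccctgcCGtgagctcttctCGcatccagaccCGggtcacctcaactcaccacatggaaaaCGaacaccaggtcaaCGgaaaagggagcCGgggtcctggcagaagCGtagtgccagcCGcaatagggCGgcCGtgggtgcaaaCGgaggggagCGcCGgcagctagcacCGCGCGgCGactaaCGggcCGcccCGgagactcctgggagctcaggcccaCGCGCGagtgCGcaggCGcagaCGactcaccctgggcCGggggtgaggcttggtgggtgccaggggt
ZNF671: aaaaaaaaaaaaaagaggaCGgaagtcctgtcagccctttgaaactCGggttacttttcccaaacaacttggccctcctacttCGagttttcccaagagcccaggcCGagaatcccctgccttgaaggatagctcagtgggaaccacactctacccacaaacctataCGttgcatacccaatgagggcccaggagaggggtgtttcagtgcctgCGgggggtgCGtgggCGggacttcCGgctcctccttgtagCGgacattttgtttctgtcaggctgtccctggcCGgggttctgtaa
ZNF135: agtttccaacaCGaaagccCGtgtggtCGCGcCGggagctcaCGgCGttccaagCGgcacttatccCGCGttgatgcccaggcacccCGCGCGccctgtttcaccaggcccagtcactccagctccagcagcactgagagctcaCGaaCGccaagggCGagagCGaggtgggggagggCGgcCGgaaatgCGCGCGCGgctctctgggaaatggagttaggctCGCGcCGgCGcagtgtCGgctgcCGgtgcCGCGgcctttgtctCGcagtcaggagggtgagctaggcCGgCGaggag
ZNF556: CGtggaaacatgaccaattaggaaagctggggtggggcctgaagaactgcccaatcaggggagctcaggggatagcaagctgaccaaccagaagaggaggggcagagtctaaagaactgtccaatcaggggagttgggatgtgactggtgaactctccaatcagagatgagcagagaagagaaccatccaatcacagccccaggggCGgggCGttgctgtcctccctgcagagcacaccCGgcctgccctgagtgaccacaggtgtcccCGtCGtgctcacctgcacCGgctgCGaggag

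**Figure D3:**
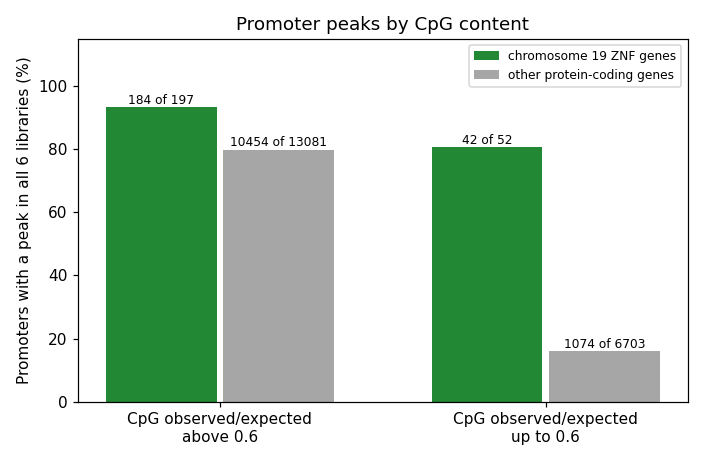
Share of promoters with a peak in all 6 libraries (vertical axis, %) in the 2 classes of CpG observed over expected ratio (horizontal axis), chromosome 19 ZNF genes in green and other protein-coding genes in grey, with the number of promoters above each bar. In the class up to 0.6 the bars stand at 80.8% and 16.0%.

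No zinc finger promoter was gained or lost with SNDX-5613. A promoter was gained when 3 of 3 SNDX-5613 and 0 of 3 DMSO libraries had a peak, and 0 of 249 zinc finger promoters met this, against 0.125% of all protein-coding promoters. The opposite pattern was met by 0 of 249, against 0.0998%. The nearest to a loss was ZNF763, of ZNF653 to ZNF791, with a weak peak in 3 DMSO libraries (relative pileup of 0.12, 0.15 and 0.11) and in SNDX-5613 replicate 1 only (0.09). In the authors' consensus sets, 230 of the 249 promoters were covered in both groups, ZNF763 in DMSO only and 18 in neither. ZNF610, ZNF83 and ZNF581 had a peak in every library except the shallow SNDX-5613 replicate 3, and ZNF701, like ZNF154, in 1 DMSO library.

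No shift in the level of the open promoters passed a test. The median rank percentile of zinc finger promoters was 60.3, 57.2 and 56.5 in DMSO and 56.2, 57.6 and 52.7 in SNDX-5613. The difference of means was -2.52 percentile points (exact two-sided permutation test, p = 0.4), and without the shallow SNDX-5613 replicate 3 it was -0.73 (p = 0.7, exact). Ranked by fold enrichment, it was -6.40 (p = 0.2, exact). Every SNDX-5613 rank was above every DMSO rank at 5 of 226 promoters (2.21%), against 7.29% of all promoters tested. Every one was below at 16 of 226 (7.08%), near the 6.7% of all promoters tested. With SNDX-5613 replicate 3 left out, the counts were 19 of 229 above (8.30%, against 12.2% of all) and 27 below (11.8%, against 12.5%). With any other library left out, the share below was larger than that of all promoters (11.1% to 15.5%, against 10.8% to 13.0%).

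The 5 promoters that ranked higher were ZNF121, ZNF850, ZNF585B, ZNF460 and ZNF837. The largest shift was at ZNF585B, of ZNF565 to ZNF573, from a mean rank of 61.0 to 76.5. Its relative pileup was 1.04, 0.95 and 1.08 in DMSO and 1.13, 1.15 and 1.35 in SNDX-5613, so the groups did not overlap, and the highest value came from the shallow library. ZNF460 gave 1.62, 1.59 and 1.69 in DMSO and 1.81, 1.90 and 2.23 in SNDX-5613, again with the shallow library highest. The mean ranks of ZNF121, ZNF850 and ZNF837 were 26.2, 30.1 and 82.3 in DMSO and 37.8, 41.4 and 91.7 in SNDX-5613.

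Among the 16 that ranked lower, the 5 largest shifts were at ZNF221, ZNF878, ZNF888, ZNF440 and ZNF611. ZNF221, of ZNF575 to ZNF296, had a relative pileup of 1.23, 1.26 and 1.24 in DMSO and 1.03, 1.05 and 0.96 in SNDX-5613, and its mean rank was 88.9 and 66.7. ZNF878 gave 1.07, 1.03 and 1.12 against 0.88, 0.87 and 0.92. At both genes the 2 groups were apart in the deeper libraries as well. ZNF440, at 1.01, 0.95 and 0.90 against 0.93, 0.87 and 0.69, overlapped in relative pileup although its ranks did not. The other 11 were ZNF223, ZNF345, ZNF347, ZNF415, ZNF568, ZNF586, ZNF628, ZNF723, ZNF780A, ZNF793 and ZNF829. By cluster, ZNF565 to ZNF573 held 4 of the 16 among its 24 open promoters, and 2 of the 5 that ranked higher. ZNF175 to ZNF331 held 4 of the 16 among its 34, and 0 of the 5. Of all promoters tested, 6.7% ranked lower and 7.29% higher, and the cluster counts were not tested. ZNF829 and ZNF568 had the same pileup and rank in every library, as genes that share 1 promoter peak do. The 16 genes therefore stand for 15 peaks, and the 4 of ZNF565 to ZNF573 for 3. Over all, the 226 open promoters stood for 219 distinct peaks, with 14 genes sharing one in pairs.

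A model across all promoters gave no call among these genes. With limma on the log2 pileups of the 11754 protein-coding promoters with a peak in all 6 libraries, 1.1% (129) had a Benjamini-Hochberg adjusted p below 0.05, and 0 of the 226 zinc finger promoters did. At an unadjusted p below 0.05, 2 zinc finger promoters were higher in SNDX-5613 (5.16% of all promoters were) and 10 were lower (4.38% of all). The smallest p was at ZNF723, of ZNF101 to ZNF254, named here after its value was seen. Its relative pileup was 0.45, 0.60 and 0.52 in DMSO and 0.44, 0.34 and 0.35 in SNDX-5613, a log2 difference of -0.52 (SE 0.15, limma adjusted p = 0.22). ZNF221 followed at -0.32 (SE 0.094, limma adjusted p = 0.24). The median log2 difference of zinc finger promoters was -0.023 and that of all promoters -0.0067.

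**Figure D4:**
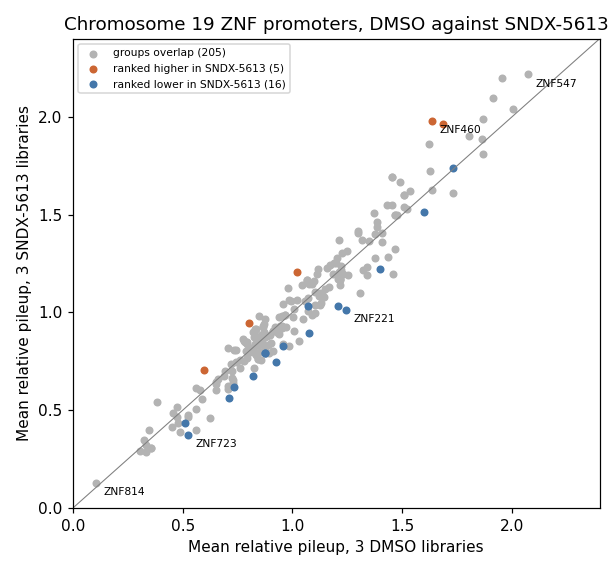
Mean relative pileup of each of the 226 ZNF promoters with a peak in all 6 libraries, in the 3 DMSO libraries (horizontal axis) and the 3 SNDX-5613 libraries (vertical axis), with the line of equality. Orange and blue points are the 5 and 16 promoters whose ranks did not overlap between groups, and the points stay near the line from ZNF814 at the bottom to ZNF547 at the top.

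Gene bodies and last exons of zinc finger genes had fewer accessible regions per Mb than those of other genes of chromosome 19. No other gene set was compared. Open promoters of those other genes had 1.43 further regions within 10 kb, against 0.87 at all protein-coding promoters. Outside 1 kb of their starts, the bodies of the 249 genes held 116, 166 and 128 regions in DMSO and 145, 116 and 56 in SNDX-5613. Of these, 8 to 16 per library lay within 1 kb of the start of another gene. Per Mb of whole body length, with the windows around starts included, this gave 7.41 to 22.0 regions. Bodies of other genes of chromosome 19, counted in the same way, had 28.4 to 84.5 per Mb. The density was lower in 6 of 6 libraries (mean difference -51.7 per Mb, exact sign-flip permutation p = 0.03125). As a share of all regions of a library, which allows for depth, zinc finger bodies took 0.137% ± 0.0080 (SD, n = 3) in DMSO and 0.131% ± 0.0098 (SD, n = 3) in SNDX-5613. Those shares did not differ beyond the spread (exact permutation test, p = 0.6). No body region was found in any library at 137 of the 249 genes.

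The last exon, which usually carries the finger array, had a median length of 3338 bases in these genes. It held 17.7, 39.8 and 18.8 regions per Mb in DMSO and 21.0, 18.8 and 5.53 in SNDX-5613, with DMSO replicate 2 well above the other libraries. Last exons of other genes of the chromosome held 30.9 to 101 per Mb, higher in 6 of 6 libraries (mean difference -59.6 per Mb for zinc finger genes, exact sign-flip permutation p = 0.03125). With the same number of top regions kept in each library, that difference was -29.6 per Mb. The share of a last exon's 50-base words found again on chromosome 19 differed between genes, with 0% at ZNF565 and 63.5% at ZNF98. Whether reads were lost in such copied sequence was not tested. A last exon region was absent from all libraries at 203 genes. It was present in at least 5 libraries at 6, ZNF565, ZNF566, ZNF575, ZNF283, ZNF404 and ZNF582.

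**Figure D5:**
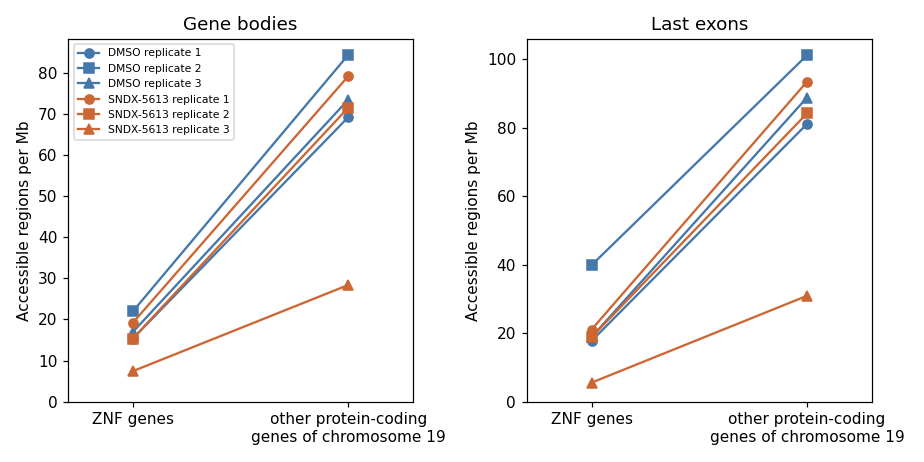
Accessible regions per Mb (vertical axes) in gene bodies (left) and last exons (right) of ZNF genes and of other protein-coding genes of chromosome 19 (horizontal axes), with 1 line per library, DMSO in blue and SNDX-5613 in orange. All 6 lines rise from the ZNF genes to the other genes in both panels, and SNDX-5613 replicate 3 is lowest.

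At least 1 body region was found at the other 112 genes, and the 6 with the most held 24.1% of the 740 gene and region pairs over all libraries. ZNF536, a 489 kb gene outside the clusters with a role in neuronal differentiation, had 9, 10 and 8 regions in DMSO and 14, 18 and 3 in SNDX-5613 with no peak at its canonical start. ZNF83 followed at 6, 8 and 8 in DMSO and 7, 5 and 3 in SNDX-5613. ZNF816-ZNF321P had 21 over the 6 libraries, ZNF675 20, and ZNF331 and ZNF20 19 each. The lowest count at ZNF536 and at ZNF83 came from the shallow library. At ZNF536 the groups overlapped only through it, since the deeper SNDX-5613 libraries had 14 and 18 regions against 8 to 10 in DMSO, while at ZNF83 the deeper libraries overlapped as well.

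Genes whose proteins act with KRAB zinc finger proteins were open in every library. All 16 had a peak in all 6. They include TRIM28 itself, at a relative pileup of 1.45 to 1.78, the H3 lysine 9 methyltransferase SETDB1 at 1.09 to 1.44 and its partner ATF7IP at 0.88 to 1.01. The HP1 proteins CBX1, CBX3 and CBX5 had means of 1.10, 1.49 and 1.81. Those of the HUSH silencing complex, TASOR, MPHOSPH8 and PPHLN1, were 0.64, 0.88 and 0.73, and MORC2, which works with it, had 1.42. CHAF1A (histone deposition), SUV39H1 (H3 lysine 9 methylation), ATRX and DAXX (histone H3.3 deposition), UHRF1 and DNMT1 (maintenance of DNA methylation) had means of 0.77 to 1.60. Of the 16, ATF7IP ranked higher in SNDX-5613 and 0 ranked lower, against 7.29% and 6.7% of all promoters tested. ZNF274, which binds the 3′ ends of zinc finger genes and recruits SETDB1 there, had a relative pileup of 1.23, 1.29 and 1.18 in DMSO and 1.28, 1.20 and 1.12 in SNDX-5613, and its groups overlapped. ZNF557, the first gene of its cluster, overlapped too, at 1.35, 1.31 and 1.01 against 1.24, 0.95 and 1.46.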

How the data were processed

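ATAC-seq peak lists of 6 HLF libraries, 3 per group, were analysed, with groups and replicate numbers from the labels. The submitters' processing notes name Trim Galore 0.6.7, Bowtie2 2.3.4.1, Picard 2.20.0, SAMtools, MACS2 and deepTools 3.5.4 on hg38. The authors called peaks in each library separately. Whether reads were shifted for the Tn5 cut, filtered by mapping quality or cleared of blacklisted regions is not given in the sources used here. Centring on summits makes presence within 1 kb insensitive to a shift of a few bases, while unfiltered multi-mapping reads could add peaks in copied sequence. Filtering of such reads could instead leave peaks out there. In the promoter windows the share of 50-base words found again on chromosome 19 had a median of 0% among open genes (highest 33.0%). Each deposited peak list holds, per summit, the authors' fold enrichment (a ratio of pileup to local background), -log10 p and -log10 q. A deposited summit score was not used, and of the authors' 2 consensus sets only the regions were used.

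Genes came from GENCODE release 44. The members and gene lists were chosen with earlier results of these data known. Whole-number pileups were solved from each fold and -log10 p (tolerance 0.001 in -log10 p). All chromosome 19 summits gave one, against 0.43% to 0.59% of summits when p was shuffled. Read totals were not analysed here, so the most frequent background pileup, 0.211 to 1.51, served as relative depth. Counting error at low pileups limits precision most in SNDX-5613 replicate 3. Regions kept 1 strongest summit each. Last exons left out 1 kb around the starts of all coding and long noncoding RNA genes. Gene bodies left out regions within 1 kb of the starts of their own gene set only, and their densities were taken over whole body length.

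Shares and medians were compared by exact permutation over libraries. Replicates carry no stated origin beyond a split dish, so p measures spread between these libraries. Log2 pileups were quantile-normalised and fitted with limma 3.58.1 (R 4.3.3), which was tested on simulated data. The authors' DESeq2 test on reads was not run, since counts were not analysed here. Named genes were those gained or lost, the 5 most shifted each way, the 3 strongest and weakest, those closed, the 5 with most body regions, cluster ends, cofactors, and ZNF91, ZNF274 and ZNF557. Alternatives covered -log10 q of at least 3, equal numbers of regions (40568), other start sites, overlap in place of summits, read-through genes left out, rank by fold, 500 kb cluster gaps, limma settings and each library left out.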

Additional observations from a re-analysis of the deposited data

How the results depend on the processing

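Higher promoter share than other genes of chromosome 19 (22.9 to 37.6 percentage points), the higher share of the ZNF91 cluster than of the other zinc finger genes pooled and the lower density in last exons kept their direction in all alternatives and libraries left out. With 1 library left out, 5 libraries cannot give an exact sign-flip p below 0.0625. The differences were then 28.6 to 30.7 points, 2.52 to 3.09 points and -66.5 to -57.1 regions per Mb, and -29.6 per Mb with equal numbers of regions. The difference in gene body share between SNDX-5613 and DMSO, never past the threshold, became 0.0068 points with starts at the 5′ end of the gene record (exact permutation p = 1). Promoters without a peak numbered 28 with those starts and 8 with any transcript start. The results on last exons and on promoters without a peak were added after seeing the data. The comparisons of background, neighbouring regions and gene body density with other genes of chromosome 19 were not set out in advance either. Nor were the CpG classes and the CCAAT counts. Ranked by fold, 9 promoters were higher (3.98%, against 7.73% of all) and 20 lower (8.85%, against 6.31%). With 1 library left out, 5 to 19 were higher (2.21% to 8.30%, against 11.2% to 13.3% of all promoters). Lower were 25 to 35 (11.1% to 15.5%, against 10.8% to 13.0%). The share ranked lower was above that of all promoters except without SNDX-5613 replicate 3. Lost promoters numbered 0 to 1, ZNF763 being lost without SNDX-5613 replicate 1. No zinc finger promoter was called by limma under any setting, including array weights and median centring, while calls over all promoters ran from 51 without DMSO replicate 1 to 278 without SNDX-5613 replicate 3 (129 as reported, 105 of them higher; 262 of 275 were higher with median centring and 186 of 266 with array weights). Median centring put the median of all promoters at 0.029 and that of zinc finger promoters at -0.0100.

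Same-numbered libraries did not deviate together: their deviations from the group means correlated at 0.049, -0.0098 and 0.020, so the numbers were not taken as pairs. With the replicate block, the promoter share difference was -0.94 (exact p = 0.5), that of rank -2.52 (exact p = 0.5), and that of gene body share -0.0059 (exact p = 1), where 3 pairs allow no p below 0.25. The limma fit with the block called 109 promoters and 0 zinc finger promoters.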
